A study of Mus musculus with 8 samples.

Results

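The leptin gene itself and 8 further transcripts of the fat cell were followed through mouse gallbladders of leptin-deficient mice that had been injected with leptin or with saline. The 9 genes, out of 18193 named on the array, were chosen by name for their place in adipocytes, with earlier results of these data known. Every probe set annotated to a single one of these symbols was taken: Lep, Adipoq, Retn, Fabp4, Plin1, Lpl, Lipe, Pparg and Cd36. A probe set is the group of short oligonucleotides on the array that reports 1 transcript. They came to 15 of the 45037 probe sets that are not controls and covered 8 of the 9 genes, because no probe set carried the symbol Plin1 in the annotation used here. Of the 15, 13 were bright enough to enter the test across the array.

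The mice were female B6.V-lepob animals, which carry the ob allele of Lep in both groups, so no group with working leptin of its own was measured. From the age of 8 weeks, leptin mice received recombinant mouse leptin at 5 µg per g body weight by daily intraperitoneal injection for 4 weeks, and saline mice received saline on the same schedule (12 mice per group). Cholecystectomy followed when the mice were 12 weeks old and had gone a night without food, and the RNA of 3 gallbladders was combined into each pool. Each treatment had 4 pools with 1 array each, numbered 5 to 8 for leptin and 1 to 4 for saline. An SD given here is therefore the spread between pools of 3 animals, and n = 4 pools per treatment limits the precision of every comparison. The arrays measured the whole organ, in which fewer cells of a type and less RNA per cell cannot be told apart.

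White adipocytes store triglyceride in a single large droplet and secrete hormones, among them leptin, which reports fat stores to the brain, adiponectin, which is encoded by Adipoq, and, in mice, resistin, which is encoded by Retn. They take up fatty acids with the help of lipoprotein lipase and Cd36, carry them in the cytosol on Fabp4, coat the droplet with perilipin and release fatty acids through hormone-sensitive lipase, encoded by Lipe; Pparg is the nuclear receptor that drives the adipocyte programme. The ob allele is a premature stop in the coding sequence of Lep, so these animals make Lep mRNA but no functional hormone. Injected leptin is protein and adds no Lep mRNA to the measurement. Adipoq, Retn, Lep and Plin1 are largely markers of fat cells, whereas Lpl, Fabp4, Pparg and Cd36 are also made by macrophages, endothelium or other cells.

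The promoters of Lep, the member with the largest fitted difference between treatments, and of Adipoq, the transcript against which the others were set, are shown with the letters that were searched for in them. The sequences are RefSeq's, on mouse build GRCm38.p6, and are the 250 bases before each gene's start on the forward strand, at chr6:29059971-29060220 for Lep and at chr16:23146286-23146535 for Adipoq. Capitals mark TTGCNNAA (TTNNGCAA on the other strand), a form of the C/EBP recognition sequence, in Lep, and CCAAT in Adipoq, which reads on the other strand as ATTGG.
Lep: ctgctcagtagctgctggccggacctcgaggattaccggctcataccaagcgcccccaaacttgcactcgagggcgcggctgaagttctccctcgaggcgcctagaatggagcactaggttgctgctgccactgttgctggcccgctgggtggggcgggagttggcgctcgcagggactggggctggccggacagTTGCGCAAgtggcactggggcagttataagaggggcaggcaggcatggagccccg
Adipoq: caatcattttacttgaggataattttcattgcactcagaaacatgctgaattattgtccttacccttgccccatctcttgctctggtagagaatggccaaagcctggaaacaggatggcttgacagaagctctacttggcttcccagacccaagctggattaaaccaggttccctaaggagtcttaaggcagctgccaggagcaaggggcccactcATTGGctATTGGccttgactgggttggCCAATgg

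The match in Lep, TTGCGCAA, started 55 bases before the gene's start, and the 3 matches in Adipoq started 34, 27 and 7 bases before it. The Lep window held no CCAAT and the Adipoq window no TTGCNNAA. Over 32851 such windows, 9.56% held TTGCNNAA and 33.8% held CCAAT on either strand, and neither motif contains the other. Of the 7 member genes with a window, TTGCNNAA was also found in Plin1 and in 1 of 3 windows of Pparg, and CCAAT also in Cd36 and in 2 of 3 windows of Pparg. A match describes letters only; binding was not measured.

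Signals are those of the MAS 5.0 software, which averages the perfect-match oligonucleotides of a probe set after a correction from their mismatch partners and scales every array to a trimmed mean of 250. The median signal of an array was 98.9 ± 5.74 in leptin pools and 81.8 ± 4.18 in saline pools, and the 3′ to 5′ signal ratio of the actin control, a measure of RNA integrity and labelling, was 1.89 ± 0.207 in leptin pools and 1.60 ± 0.0882 in saline pools (SD, n = 4 each). The part of these differences in the results below was not tested beyond the covariate and scaling alternatives. No pair of arrays was close to identical, the mean absolute log2 difference between 2 arrays being 0.274 to 0.482. All 8 gallbladder epithelium markers looked at were bright enough to be tested, and so were all 9 hepatocyte markers, whose summed signal was 109542 to 132335 in leptin pools and 90032 to 143002 in saline pools. A level of 46.0, the 95th percentile of bacterial control probe sets, is called background here.

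Lep mRNA had the widest range of the members and its lowest signal lay in a leptin pool. Its signals were 17.9, 52.9, 73.7 and 46.5 in leptin pools 5 to 8, against 579.7, 220.9, 198.0 and 48.0 in saline pools 1 to 4. Leptin pool 5 was under background, and leptin pool 8 and saline pool 4 were just above it. The treatments overlapped through saline pool 4, which sat among the leptin pools. The means were 47.8 ± 23.0 in leptin pools and 262 ± 226 in saline pools (SD, n = 4 each), and the fitted log2 difference, leptin minus saline, was -1.94 ± 0.57 (SE, 95% interval -3.18 to -0.70). With a limma adjusted p of 0.0605 over all 22519 tested probe sets, Lep did not pass the threshold of 0.05, although its unadjusted p was 0.00487. It passed without saline pool 4 (-2.55, adjusted p = 0.00953) but not without saline pool 1 (-1.42, adjusted p = 0.152). The estimate lay between -2.55 and -1.42 whichever pool was left out. With the actin ratio of each array as a covariate it was -0.98 ± 0.79 (adjusted p = 0.545).

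Adipoq, the mRNA of adiponectin, showed no difference beyond the spread between pools. It gave 898.8, 548.6, 1184.9 and 738.5 in leptin pools 5 to 8 and 2480.1, 1113.4, 1349.6 and 243.9 in saline pools 1 to 4. The highest and the lowest of the 8 signals were both saline pools, and all 4 leptin pools lay between them. The fitted difference was -0.27 ± 0.51 (95% interval -1.38 to 0.84, adjusted p = 0.793), an interval that reaches from a fall past 2-fold to a rise. Left without saline pool 1 the estimate changed sign to 0.17, and without saline pool 4 it was -0.93 (adjusted p = 0.0946).

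Retn, which encodes the adipocyte hormone resistin in mice, followed the same order of pools. Its signals were 397.5, 220.4, 408.8 and 261.0 in leptin pools, against 653.2, 422.7, 560.6 and 212.3 in saline pools. Saline pools 1 to 3 were above all leptin pools and saline pool 4 was below them. The difference of -0.44 ± 0.30 did not pass the test (95% interval -1.10 to 0.21, adjusted p = 0.409).

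**Figure D1:**
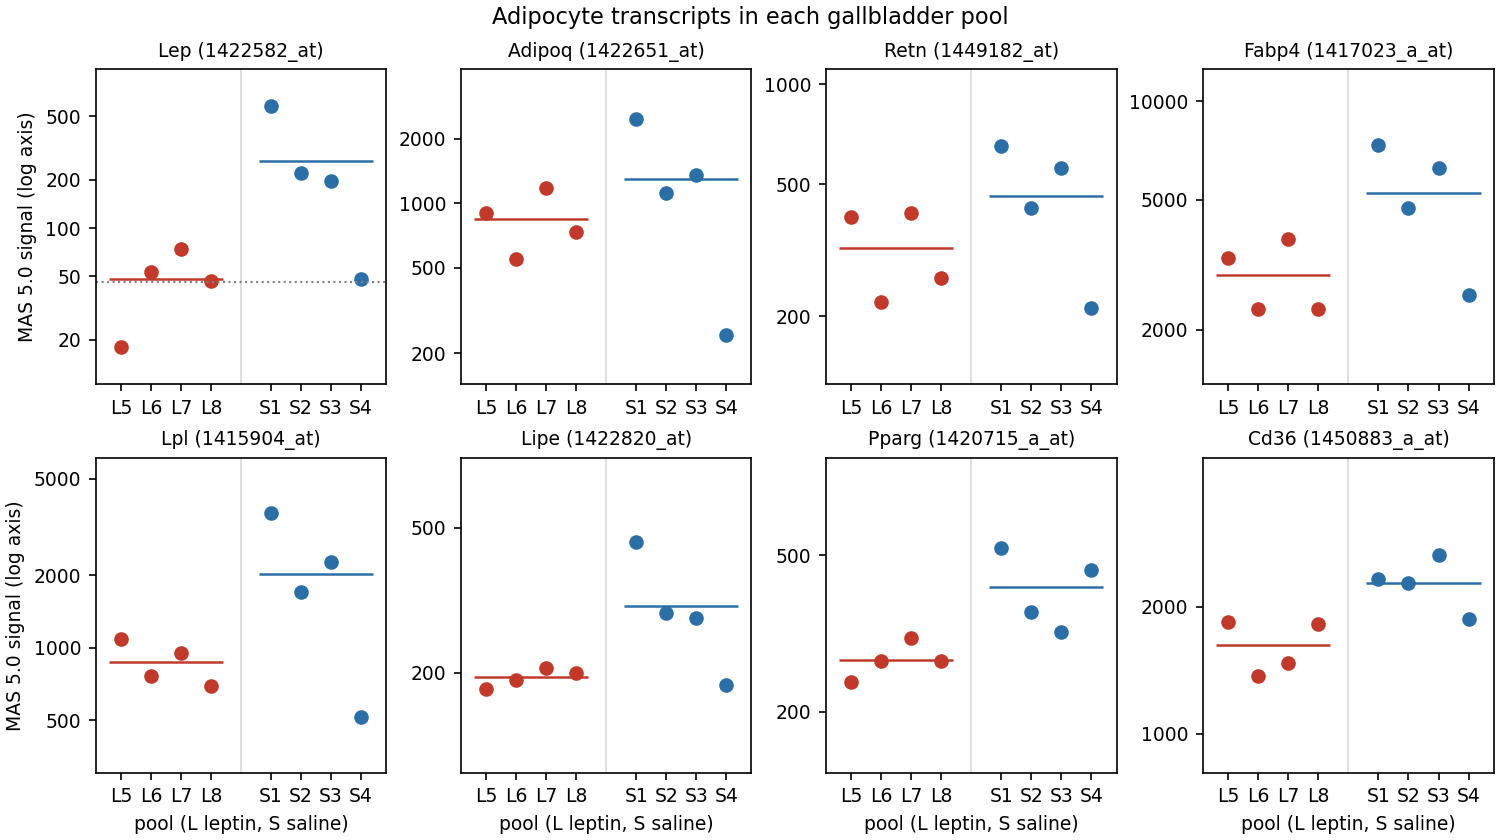
MAS 5.0 signal (log axis, a scale of its own in each panel) of the brightest probe set of each of the 8 measured genes in leptin pools L5 to L8 (red) and saline pools S1 to S4 (blue). Points are single pools, lines are the means of 4 pools and the dotted line is background at 46.0; S1 is the highest pool for Lep, Adipoq, Retn, Fabp4, Lpl, Lipe and Pparg, and S4 is the lowest for Adipoq, Retn and Lpl.

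Among the genes of fatty acid uptake and transport, Cd36 had the only probe set of the 13 that passed the test. Cd36 encodes a membrane protein that takes up fatty acids and oxidised lipoproteins. The probe set 1450883_a_at gave 1844.1, 1370.5, 1470.8 and 1823.8 in leptin pools, against 2325.1, 2280.4, 2663.4 and 1876.8 in saline pools. All leptin pools were below all saline pools, with leptin pool 5 and saline pool 4 nearest to each other. The difference was -0.49 ± 0.14 (adjusted p = 0.0472), but the call was lost on leaving out any 1 pool other than leptin pool 5 or saline pool 4, with adjusted p up to 0.131. The other 2 Cd36 probe sets, annotated to the same accession, pointed the same way without passing. The first, 1423166_at, was 958.2 to 1522.6 in leptin pools and 1518.9 to 2046.0 in saline pools (-0.48 ± 0.17, adjusted p = 0.107), and 1450884_at was 171.3 to 258.4 in leptin pools and 233.3 to 339.2 in saline pools (-0.36 ± 0.18, adjusted p = 0.241).

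Lpl, the lipase that frees fatty acids from circulating lipoproteins at the vessel wall, had the second largest fitted difference of the genes measured. Its probe set 1415904_at gave 1085.3, 767.2, 949.0 and 694.6 in leptin pools, against 3598.5, 1698.3, 2268.1 and 515.7 in saline pools. Saline pools 1 to 3 were above every leptin pool, and saline pool 4 was below them all. The difference was -0.92 ± 0.43 (95% interval -1.85 to 0.0019, adjusted p = 0.214). The second Lpl probe set, 1431056_a_at, gave 287.4, 206.1, 243.4 and 244.2 in leptin pools and 847.1, 408.7, 519.0 and 204.4 in saline pools, with a difference of -0.83 ± 0.32 (adjusted p = 0.136). Both probe sets passed without saline pool 4, with differences of -1.47 (adjusted p = 0.00501) and -1.19 (adjusted p = 0.0150). Without saline pool 1 the differences shrank to -0.54 (adjusted p = 0.449) and -0.52 (adjusted p = 0.286).

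Fabp4, the fatty acid carrier of the adipocyte cytosol, was read by 4 probe sets that did not all point one way. The probe set 1417023_a_at gave 3318.9, 2313.5, 3781.5 and 2315.5 in leptin pools and 7378.6, 4712.5, 6243.7 and 2561.7 in saline pools. All but saline pool 4 of the saline pools were above all leptin pools, and the difference was -0.76 ± 0.27 (adjusted p = 0.113). For 1451263_a_at the leptin pools, at 1340.2 to 2410.7, lay within the saline pools, at 1338.0 to 4081.4, and the difference was -0.27 ± 0.27 (adjusted p = 0.586). The dim probe set 1425809_at was the only one of the 13 with a positive estimate, 0.37 ± 0.27 (adjusted p = 0.450), from 82.1 to 130.8 in leptin pools and 53.0 to 106.2 in saline pools. A further probe set, 1424155_at, was too dim for the test and was under background in 4 leptin and 2 saline pools, so it bears on neither direction.

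Lipe, hormone-sensitive lipase, releases stored fatty acids under adrenergic control. It gave 180.6, 191.0, 205.7 and 200.1 in leptin pools, against 456.7, 291.8, 282.4 and 184.4 in saline pools. The leptin pools differed by 1.14-fold from lowest to highest and the saline pools by 2.48-fold, and saline pool 4 fell among the leptin pools. The difference of -0.56 ± 0.22 did not pass (adjusted p = 0.154), and it passed without saline pool 4 (-0.76, adjusted p = 0.0496). Without saline pool 1 it was -0.34 (adjusted p = 0.332). The other Lipe probe set, 1432180_at, was under background in 2 leptin and 3 saline pools and was not tested.

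Pparg, the nuclear receptor, had a different order of pools. Its signals were 237.6, 269.0, 308.1 and 268.5 in leptin pools, against 520.0, 359.3, 318.8 and 458.3 in saline pools. Every leptin pool was below every saline pool, and saline pool 4 was the second highest of the 8. The difference was -0.58 ± 0.17 (95% interval -0.94 to -0.21), with an adjusted p of 0.0593 that narrowly missed the threshold. Leaving out saline pool 4 moved the estimate little, to -0.52 (adjusted p = 0.144), and leaving out saline pool 3 gave the one call among such fits (adjusted p = 0.0388). With the actin ratio as a covariate it was -0.20 ± 0.22 (adjusted p = 0.672).

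Across the array, 6.93% of tested probe sets were called in either direction and 3.39% were called lower with leptin, and 1 of the 13 member probe sets is close to these shares. The estimate was below 0 for 12 of the 13, against a median of 0.039 over all tested probe sets. All leptin pools lay below all saline pools for 2 of the 13, Pparg and Cd36 1450883_a_at, where 7.40% of all tested probe sets did so. Of all calls 798 were higher and 763 lower with leptin (51.1% higher). With arrays centred on their medians, which moved every estimate by -0.25, they were 406 higher and 3586 lower (10.2% higher), and 8 member probe sets passed. Because every estimate moved by the same amount, distances to the median of all probe sets could not change. Lep was at -1.98, Pparg at -0.62 and Adipoq at -0.31 from that median in both scalings.

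Several members, though not Pparg or Cd36, varied widely among pools of 1 treatment. Saline pool 1 was the highest of all 8 pools for 9 of the 13 probe sets, and saline pool 4 was the lowest saline pool for 11 and the lowest of all 8 for 6. The saline pools covered a wider fold range than the leptin pools for 11. Between the lowest and the highest pool, Lep ranged over 4.12-fold in leptin pools and 12.1-fold in saline pools, Adipoq over 2.16-fold in leptin pools and 10.2-fold in saline pools, and Lpl 1415904_at over 1.56-fold in leptin pools and 6.98-fold in saline pools. Cd36 1450883_a_at ranged over only 1.35-fold in leptin pools and 1.42-fold in saline pools, and Pparg over 1.30-fold in leptin pools and 1.63-fold in saline pools. The SD of the log2 values around the treatment means placed Lep at percentile 99.8 of all tested probe sets, Adipoq at 99.7, both Lpl probe sets at 98.9 and 95.4, Retn at 94.8 and Fabp4 1417023_a_at at 93.1. Lipe stood at 77.2, Pparg at 46.8 and Cd36 1450883_a_at at 35.2.

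With saline pool 4 left out, 6 of the 13 probe sets were called, where 4.13% of all tested probe sets were. These were Lep, Fabp4 1417023_a_at (-1.07, adjusted p = 0.0124), both Lpl probe sets, Lipe and Cd36 1450883_a_at (-0.58, adjusted p = 0.0335), all lower with leptin. Over the 7 remaining pools, leptin was below saline without overlap for 8 of the 13, where 9.21% of all tested probe sets were. Adipoq and Retn did not pass in that fit, at -0.93 (adjusted p = 0.0946) and -0.77 (adjusted p = 0.0928). Without saline pool 1 instead, 0 of the 13 were called, where 1292 of all 22519 tested probe sets were. The labels give no reason to leave saline pool 4 out, and it was singled out here after its low adipocyte signals had been seen, so the fit with all pools remains the result.

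**Figure D2:**
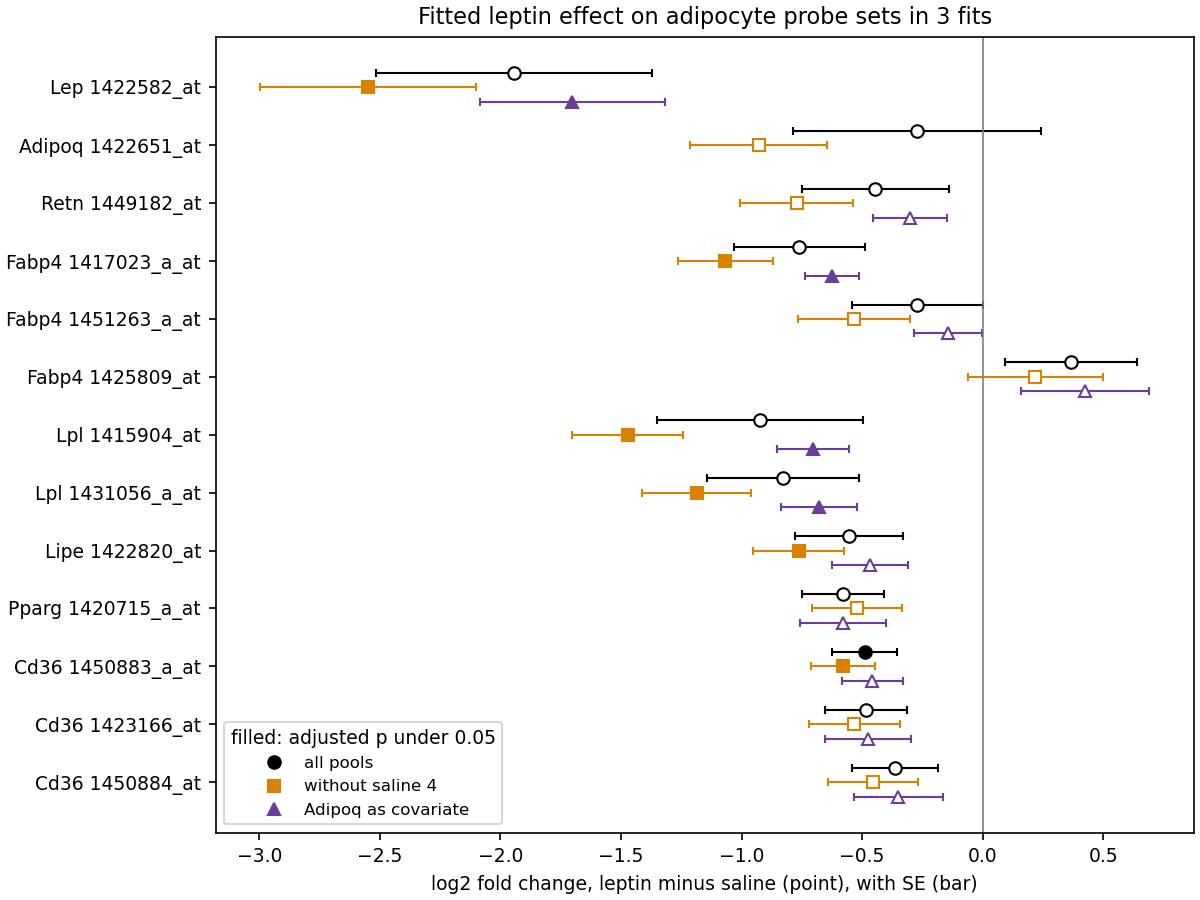
Fitted log2 difference, leptin minus saline, with its SE (bar) for the 13 tested probe sets in the fit of all pools (circles), without saline pool 4 (squares) and with the Adipoq level of each pool as a covariate (triangles), filled where the adjusted p was under 0.05. Filled symbols number 1 with all pools, 6 without saline pool 4 and 4 with the covariate, and Fabp4 1425809_at alone lies right of 0.

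To follow the members relative to a transcript of the fat cell, each was also set against Adipoq in the same pool. The log2 signal minus the log2 Adipoq signal is a ratio between probe sets, so its level carries no meaning and only its differences between pools do. For Lep the ratio was -5.65, -3.37, -4.01 and -3.99 in leptin pools 5 to 8, against -2.10, -2.33, -2.77 and -2.35 in saline pools 1 to 4. All leptin pools were below all saline pools, saline pool 4 now lay with the other saline pools, and the SD among saline pools was 0.28, where it was 1.48 for the log2 signal itself. The lowest ratio, in leptin pool 5, rests on a Lep signal under background. That of saline pool 4 rests on a Lep signal of 48.0, just above the background of 46.0. The separation and the small SD among saline pools therefore depend in part on a signal near background. The mean ratio was -4.26 ± 0.98 in leptin pools and -2.39 ± 0.28 in saline pools (SD, n = 4 each). No fold is given because Lep lay under background in leptin pool 5 and just above it in leptin pool 8 and saline pool 4.

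The Lpl ratio, from 1415904_at, was 0.27, 0.48, -0.32 and -0.088 in leptin pools and 0.54, 0.61, 0.75 and 1.08 in saline pools, again without overlap and 1.58-fold lower with leptin. Of the 12 tested member probe sets other than Adipoq, these 2 had leptin below saline in all pools on this ratio, where 0.0355% of the other 22518 tested probe sets did, 8 in number. The other 6 were Cidec, a lipid droplet protein gene, and Tnfrsf12a, Sult1e1, Tmpo, Taf4b and Mcm3, which were not chosen as fat cell genes and differed between treatments by -1.47 to -3.12 on this ratio. By construction, a probe set that does not follow Adipoq from saline pool 1 to saline pool 4 has a wide ratio in saline pools, and the ratio was looked at after the members' spread had been seen. The Fabp4 ratio overlapped between treatments and differed by -0.49, with smaller mean differences for Retn (-0.18), Lipe (-0.30), Pparg (-0.32) and Cd36 (-0.22).

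**Figure D3:**
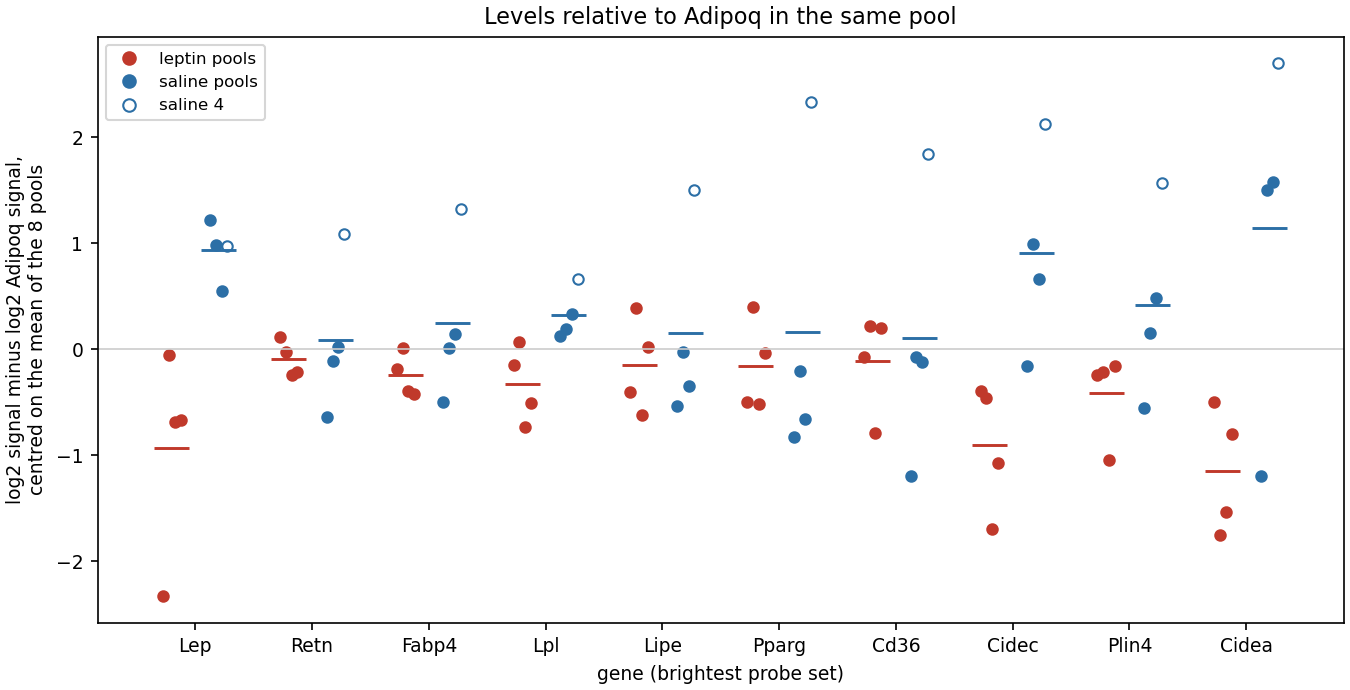
Log2 signal minus log2 Adipoq signal in the same pool, centred on the mean of the 8 pools, for the brightest probe set of 7 members and of 3 lipid droplet genes in leptin pools (red, left of each pair) and saline pools (blue, right of each pair, saline pool 4 open); short lines are means of 4 pools. Leptin and saline pools separate fully for Lep, Lpl and Cidec, and saline pool 4 is the highest pool for every gene shown but Lep.

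A fit with the Adipoq log2 level of each pool as a covariate, which estimates the slope on Adipoq that the ratio sets to 1, called 4 of the 12 other member probe sets, where 6.41% of all tested probe sets were called. Lep was lower with leptin by -1.70 ± 0.38 (adjusted p = 0.0252), Fabp4 1417023_a_at by -0.63 ± 0.11 (adjusted p = 0.00885), and the Lpl probe sets by -0.70 ± 0.15 (adjusted p = 0.0185) and -0.68 ± 0.16 (adjusted p = 0.0284). Cd36 1450883_a_at, called with all pools, was at -0.46 ± 0.13 (adjusted p = 0.0551). Retn (-0.30 ± 0.15, adjusted p = 0.267), Lipe (-0.47 ± 0.16, adjusted p = 0.106) and Pparg (-0.58 ± 0.18, adjusted p = 0.0795) did not pass. This covariate was chosen after seeing the data.

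After the treatment means were taken out, the log2 profile of Adipoq over the 8 pools had a Pearson r of 0.97 with Lpl, 0.96 with Fabp4, 0.95 with Retn, 0.91 with Lipe and 0.84 with Lep, against 0.57 with Cd36 and 0.013 with Pparg. These are descriptions of 8 pools that share arrays and scaling. Outside the members, the highest of 11719 tested genes were Timp4, an inhibitor of metalloproteinases, with 0.985, Setd7, a lysine methyltransferase gene, with 0.979, Aqp6, an aquaporin gene, with 0.976, Fasn, fatty acid synthase, with 0.976, Ighm, the immunoglobulin mu heavy chain, with 0.969, and Aoc3, an amine oxidase of adipocytes and smooth muscle, with 0.965. Timp4 gave 94.1, 71.4, 146.6 and 76.9 in leptin pools and 379.0, 139.7, 187.1 and 41.1 in saline pools, which is the Adipoq order with a difference of -0.59 ± 0.48 (adjusted p = 0.494). Fasn and Ighm were both highest in leptin pool 7 and saline pool 1 within their treatments, as Adipoq was. Their lowest signals were in leptin pool 8 and saline pool 4, and those of Adipoq in leptin pool 6 and saline pool 4. In saline pool 4 the signals of Ighm (37.5) and Timp4 (41.1) were under background. Fasn and Ighm differed between treatments, Fasn being lower with leptin by -1.17 ± 0.17 (adjusted p = 0.00132) and Ighm higher by 6.76 ± 0.33 (adjusted p = 8.23e-08).

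For Lep the profile was most like that of Lipe among the members, with an r of 0.94, followed by Adipoq with 0.84, Lpl with 0.79, Fabp4 with 0.73 and Retn with 0.66. It was 0.29 with Pparg and 0.18 with Cd36. The highest r outside the members was 0.991 for Stim2, followed by Fam120aos (0.986), Npc1l1 (0.967), Macroh2a1 (0.965), Jmjd8 (0.963) and Myo1h (0.962), none of which passed the test between treatments, with adjusted p from 0.152 to 0.763. Stim2, a calcium sensor gene of the endoplasmic reticulum, covered only 553.4 to 648.4 in leptin pools and 535.5 to 717.1 in saline pools, and both it and Lep were lowest in leptin pool 5 among leptin pools and in saline pool 4 among saline pools. The Lep signal in leptin pool 5 was under background.

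Further genes of the fat cell were taken from lists, each gene by its brightest tested probe set, and counts are read beside 8.27% of all 11719 tested genes called in either direction and a median log2 difference of 0.020. The lists were chosen with earlier results of these data known, so their counts are descriptions. Of 11 genes of the adipocyte membrane and lipid droplet, 8 were tested, 4 fell and none rose, with a median of -0.54. Cidec, which helps lipid droplets fuse, was 129.3 to 251.7 in leptin pools and 392.7 to 817.6 in saline pools (-2.03 ± 0.26, adjusted p = 0.000518). Cidea, a relative of Cidec, was 30.2 to 118.4 in leptin pools, 1 of them under background, and 200.5 to 748.0 in saline pools (-2.41 ± 0.41, adjusted p = 0.00435). Among saline pools Cidea had the order of the hepatocyte sum and was lowest in saline pool 1, where Adipoq was highest. The part of hepatocytes in the levels of the genes in this list was not tested. Plin4, a droplet coat protein gene, was 373.5 to 602.2 in leptin pools and 574.7 to 1497.8 in saline pools (-1.09 ± 0.25, adjusted p = 0.0229), and Cav1, the main caveola protein gene, fell by 0.56 ± 0.11 on the log2 scale (adjusted p = 0.0125). Plin4 lost its call without leptin pool 6 or saline pool 1, 2 or 3 (adjusted p up to 0.0729), and Cav1 lost its call under quantile scaling (adjusted p = 0.0603) and cyclic loess scaling (adjusted p = 0.0528). Aqp7, the glycerol channel of adipocytes, was under background in all 8 pools, and Adrb3 had no probe set of a single symbol in the annotation used here.

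None of the 7 tested genes of 10 adipokine and secreted protein genes was called by limma, 1 had an unadjusted p under 0.05, and their median was -0.15. The lowest p values among them belonged to Angptl4, an inhibitor of lipoprotein lipase (-0.41 ± 0.14, adjusted p = 0.0956), and Apln, the apelin gene (-0.38 ± 0.18, adjusted p = 0.224). The adipsin gene Cfd had no probe set of a single symbol, and Itln1 was under background in all pools. The list also held Lpin1 (-0.46 ± 0.25, adjusted p = 0.286), whose protein is not secreted. Among saline pools Rbp4, Agt and Rarres2 were lowest in saline pool 1, where Adipoq was highest and the hepatocyte sum lowest. The part of hepatocytes in the levels of this list was not tested. None of the 5 adipokine receptor genes was called by limma and 1 had an unadjusted p under 0.05 (median 0.011). Adipor2, a receptor of adiponectin, was at -0.30 ± 0.13 (adjusted p = 0.175) and Lepr, the leptin receptor, at 0.38 ± 0.20 (adjusted p = 0.286).

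Among the partners of lipolysis and fatty acid uptake, 1 of 13 tested genes fell and none rose, with a median of -0.11. Slc27a4, a fatty acid transport protein gene, was 249.1 to 372.9 in leptin pools and 450.7 to 622.7 in saline pools (-0.72 ± 0.16, adjusted p = 0.0167), a call lost without leptin pool 6 (adjusted p = 0.0523) or saline pool 2 (adjusted p = 0.0595). Among partners and targets of PPARG, 3 of 13 tested genes fell and none rose, with a median of -0.071. Thrsp, a regulator of lipogenesis, was 681.8 to 2116.9 in leptin pools and 4491.0 to 7787.6 in saline pools (-2.44 ± 0.31, adjusted p = 0.000531). Scd1, the stearoyl-CoA desaturase of fat and liver, was 3518.9 to 4984.7 in leptin pools and 11502.5 to 15876.1 in saline pools (-1.78 ± 0.13, adjusted p = 4.75e-06). Cebpd, a transcription factor of early fat cell differentiation, fell by 0.89 ± 0.17 on the log2 scale (adjusted p = 0.00971). Thrsp and Scd1 are also strong liver transcripts, and hepatocyte markers were bright in every pool.

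Of 6 brown adipocyte genes, 4 were tested and 1, Prdm16, rose with leptin (0.73 ± 0.14, adjusted p = 0.00796), while the median of the 4 was -0.17. Elovl3, a fatty acid elongase gene, was at -0.87 ± 0.33 (adjusted p = 0.134) and Cox7a1, a cytochrome c oxidase subunit gene, at -0.43 ± 0.19 (adjusted p = 0.200), both named after their values were seen. Ucp1, which defines brown and beige fat, was under background in all 8 pools, at 5.4 to 15.2 in leptin pools and 4.2 to 12.6 in saline pools. Of 9 preadipocyte and fibroblast genes, 6 were tested, with a median of 0.38, and Dpt, a matrix protein gene of fibroblasts, rose by 0.63 ± 0.12 (adjusted p = 0.0101). The call was lost when arrays were centred on their medians (adjusted p = 0.0665). It was also lost with the actin ratio as covariate, where 0 of the 6 were called.

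Among other cell types that make some of the same transcripts, macrophage markers rose, while endothelial markers had 1 call. Of 9 macrophage genes 8 rose with leptin, with a median of 1.05. These included Tyrobp (1.89 ± 0.13, adjusted p = 3.1e-06), C1qa (1.50 ± 0.16, adjusted p = 0.000117), Csf1r (1.09 ± 0.14, adjusted p = 0.000636) and Lyz2 (1.05 ± 0.15, adjusted p = 0.00134). With the actin ratio as covariate 4 of the 9 were called, all higher, with a median of 0.82. Under median centring 7 were called, and under quantile or cyclic loess scaling 9. The summed macrophage signal was 10916 to 13205 in leptin pools and 5600 to 6596 in saline pools. Of 9 endothelial genes, 8 were tested, with a median of 0.33 and an overlapping summed signal of 2665 to 3746 in leptin pools and 2338 to 2888 in saline pools. The 1 that was called, the tight junction gene Cldn5, rose by 0.59 ± 0.16 (adjusted p = 0.0417), a call lost on leaving out any 1 pool but saline pool 3, with adjusted p up to 0.120. The part of macrophages and endothelium in the levels of Lpl, Fabp4, Pparg and Cd36 was not tested.

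In the gallbladder epithelium list 3 of 8 genes fell, with a median of -0.23, and the summed signal was 30116 to 34021 in leptin pools and 36667 to 45272 in saline pools. They were the keratins Krt7 (-0.96 ± 0.16, adjusted p = 0.00408), Krt8 (-0.58 ± 0.10, adjusted p = 0.0051) and Krt18 (-0.35 ± 0.089, adjusted p = 0.035). Not called were Krt19 (-0.40, adjusted p = 0.0506), Cftr (-0.12), Sox17 (-0.069), Epcam (-0.0062) and Muc1 (0.028). The summed signal is weighted to bright genes, in saline pools foremost Krt8, Krt18 and Krt19. In saline pool 4, the lowest saline pool for 11 of the 13 member probe sets, this sum was the highest of the 8 pools at 45272, and in saline pool 1, the highest of the 8 pools for 9 of the 13, it was second at 43006. The smooth muscle list had 1 of 7 genes higher, Smtn (0.65 ± 0.14, adjusted p = 0.0149), and 1 lower, Actg2 (-0.58 ± 0.14, adjusted p = 0.0289), with a median of -0.17 and a summed signal of 34099 to 43335 in leptin pools and 35351 to 46938 in saline pools. Of the 9 hepatocyte genes 1, Apoa1, rose (0.70 ± 0.17, adjusted p = 0.0268), with a median of 0.021, and saline pool 1 had the lowest hepatocyte sum, 90032. The call of Krt18 was lost on leaving out any 1 pool but saline pool 3 (adjusted p up to 0.0951), that of Actg2 without leptin pool 5, 6 or 8 or saline pool 2 or 4 (up to 0.087) and that of Apoa1 without leptin pool 5, 6 or 8 or saline pool 1 or 4 (up to 0.0794). Quantile and cyclic loess scaling also ended the calls of Krt18 (adjusted p = 0.122 and 0.245) and Actg2 (0.0814 and 0.102), median centring those of Apoa1 (0.0774) and Smtn (0.0789), and the actin ratio as covariate those of Krt7 (0.140), Krt8 (0.132), Krt18 (0.255), Actg2 (0.399), Apoa1 (0.549) and Smtn (0.0884).

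Markers of neighbouring tissue that could come with the organ gave no limma calls, and 1 of the 8 tested had an unadjusted p under 0.05. Of 5 mesothelium genes 4 were tested (median -0.19), Lrrn4 at 0.65 ± 0.21 (adjusted p = 0.0846) and Msln, mesothelin, at -0.45 ± 0.22 (adjusted p = 0.234) having the lowest p. Of 6 pancreatic acinar genes 3 were tested (median -0.17), with Cela1 at -0.26 ± 0.12 (adjusted p = 0.216) and Ctrb1 at -0.17 ± 0.18 (adjusted p = 0.611). Of 5 cardiac and skeletal muscle genes only Ckm, muscle creatine kinase, was bright enough (-0.021 ± 0.23, adjusted p = 0.969). The summed signals were 1698 to 2474 in leptin pools and 1836 to 2844 in saline pools for mesothelium, 2962 to 3960 in leptin pools and 3055 to 4933 in saline pools for pancreatic acinar genes, and 228 to 315 in leptin pools and 212 to 329 in saline pools for muscle.

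**Figure D4:**
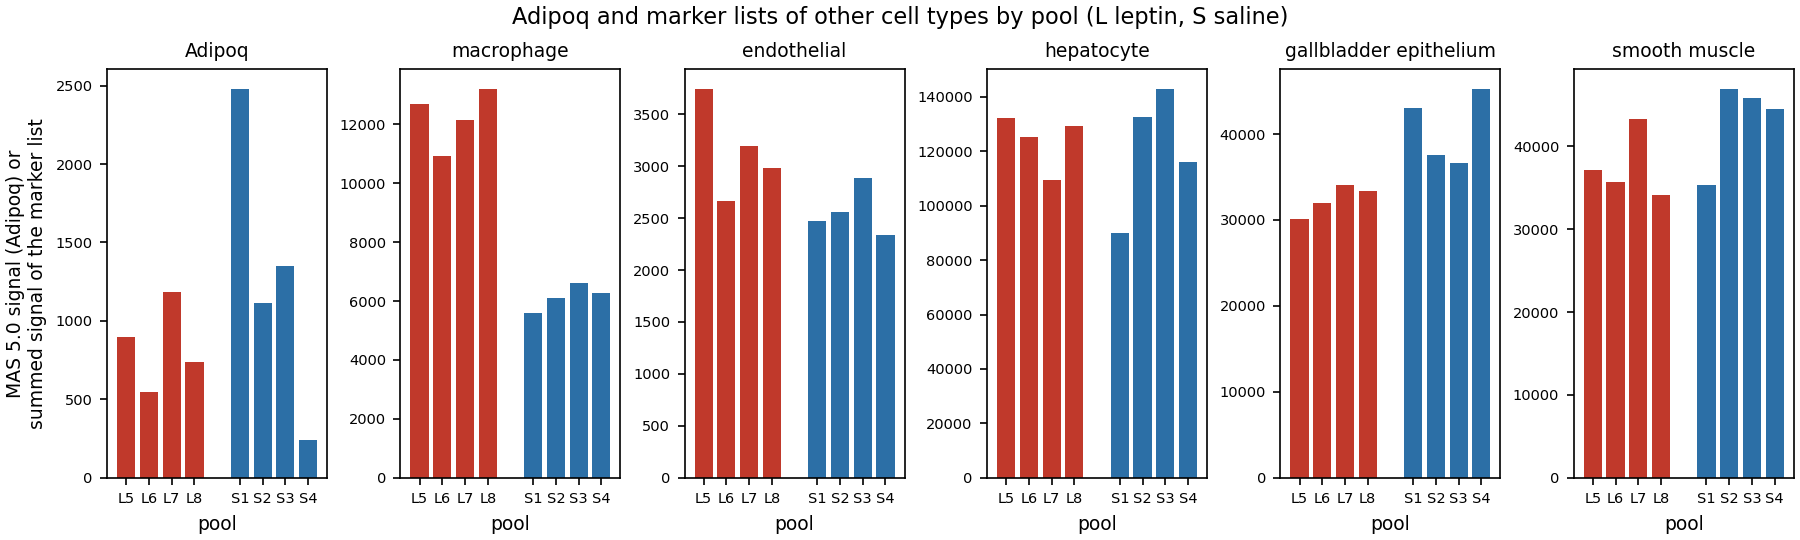
MAS 5.0 signal of Adipoq and summed signal of 5 marker lists (linear axes from 0, a scale of its own in each panel) in leptin pools L5 to L8 (red) and saline pools S1 to S4 (blue), 1 bar per pool. Adipoq spans 243.9 to 2480.1 over the saline pools, and the macrophage sum is higher in every leptin pool than in every saline pool. The epithelium sum, in which keratins weigh heavily, is lower in every leptin pool than in every saline pool.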

How the data were processed

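Gallbladder RNA of 4 leptin and 4 saline pools was hybridised to Affymetrix mouse 430 2.0 arrays, 1 array per pool. The deposited values are intensity signals on a linear scale, made by the authors with MAS 5.0 per the submitters' processing notes (the design text also names Gene Chip Operating Software); in the files every array has a 2% trimmed mean of 250. Whether arrays were scanned on 1 day was not given in the sources used here and no batch could be examined; no detection calls were used. Of 45101 probe sets, 64 controls were left out. Signals were scaled to a common trimmed mean, 8.2 (their 10th percentile) was added as a pseudocount and log2 was taken, so fold changes of dim probe sets are understated. The 22519 probe sets whose mean log2 value reached the median of the array were tested with limma 3.58.1 (lmFit, eBayes with a mean-variance trend) in R 4.3.3, with Benjamini-Hochberg adjustment over all of them and a threshold of 0.05. Background is the 95th percentile, 46.0, of 27 bacterial control probe sets.

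Symbols came from the platform annotation, and 34945 probe sets had 1 symbol, 932 several and 9224 none; 34741 symbols were updated by Entrez number to the RefSeq gene table of GRCm38.p6. A gene is its brightest probe set. No sample column was left unused. The members and the 15 gene lists were chosen with earlier results of these data known. Named genes are the members, up to 4 called genes per list by lowest p (or the 2 lowest where none was called), and the 6 most like Adipoq and Lep. Tests on simulated data with 200 of the 22519 probe sets changed recovered 1% at 1.5-fold, 60% at 2-fold and 94.5% at 4-fold, with 0, 7.69 and 5.03% false calls, and made 0 calls with none changed. The 200 were drawn at random and probe sets varied independently, so these shares do not apply to Lep, Adipoq or Lpl 1415904_at. Their SDs around the treatment means were 1.10, 1.05 and 0.86, against a median of 0.26 over all tested probe sets. Alternatives changed the scaling, pseudocount, filter, variance model, weights, covariates and pools. No sample was dropped or imputed in the main result. Pools hold different mice, and p-values measure the spread between pools.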

Additional observations from a re-analysis of the deposited data

How the results depend on the processing

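Over all alternatives, 222 results of member probe sets kept their direction and their side of the threshold, 11 lost a call (all of Cd36 1450883_a_at), 24 gained one and 11 changed sign. Changes of sign came from 2 settings. With an adipose level from Cidec, Plin4 and Slc2a4 as covariate, whose values do not overlap between treatments (-0.67 to -0.19 in leptin pools and -0.10 to 0.81 in saline pools) so that the fit separates them poorly, differences were 2.35 for Adipoq, 1.06 for Retn, 0.58 and 0.68 for the Fabp4 probe sets, 1.46 and 0.73 for Lpl, 0.17 for Lipe, and 0.0087 and 0.10 for Cd36 1450883_a_at and 1450884_at, none called. Without saline pool 1 they were 0.17 for Adipoq and 0.0022 for Fabp4 1451263_a_at, the upper ends of ranges from -0.93 and -0.53 over the pools left out. The count of called member probe sets, 1 in the main result, was 2 under quantile scaling, a 75th percentile filter and the actin ratio as covariate, 8 under median centring, 3 with array weights, 4 with Adipoq as covariate, 0 with no filter, no variance trend or the adipose level, and 0 to 6 on leaving out a pool. The calls over all probe sets moved as well, so these counts are to be read beside them. Over all probe sets, 1561 calls (51.1% higher) became 3992 under median centring (10.2% higher), 654 with the actin ratio and 143 with the adipose level as covariate, and 878 to 1436 on leaving out a pool. They were 2112 with array weights, 1444 with Adipoq as covariate, 1179 under quantile scaling, 1279 with the 75th percentile filter, 1185 with no filter and 1080 with no variance trend. Median centring moved all estimates by -0.25, so by construction Lep stayed at -1.98 relative to the median of all probe sets. List genes called, 25 in the main result, became 38 under median centring, 13 with the actin ratio and 4 with the adipose level as covariate. Lep passed under quantile scaling (adjusted p = 0.0424), cyclic loess (0.0446), median centring (0.0149) and array weights (0.0223), and was at -0.98 (0.545) with the actin ratio and -0.32 (0.944) with the adipose level as covariate. Pparg passed under quantile scaling (0.0437), median centring (0.00847) and the 75th percentile filter (0.0468), and was at -0.20 (0.672) with the actin ratio and -0.95 (0.269) with the adipose level. Cd36 1450883_a_at was at -0.74 (0.0458) with the actin ratio. Lep signal was dim, with 1 leptin pool under background and another leptin pool and saline pool 4 just above it. The Lep estimate was -2.11 and -1.59 with pseudocounts of 1 and 32. The cause of these changes was not tested. No paired analysis was possible because the pools of the treatments share no numbers.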
